A study of Mus musculus with 4 samples.

Results

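The lecticans, link proteins and tenascins of the perineuronal net were examined in the cerebellum of WT and Kdm3b+/- mice. The set was fixed by name and holds 10 of the 24532 genes listed: the lecticans *Acan*, *Bcan*, *Ncan* and *Vcan*, the link proteins *Hapln1*, *Hapln2*, *Hapln3* and *Hapln4*, and the tenascins *Tnr* and *Tnc*. Each was found by its NCBI gene number. RNA was sequenced from granule-cell-enriched tissue that had been cut by hand out of vermal slices, in 2 WT and 2 Kdm3b+/- mouse samples. The mice were male littermates over 7 weeks of age. Each sample was from 1 mouse. Kdm3b+/- mice carried 1 allele with a gene-trap vector in an intron of *Kdm3b*, a gene for a demethylase of histone H3 lysine 9, and descended from a single targeted ES cell line. They had been crossed to C57Bl/6N and then to C57Bl/6J mice. The comparison asks which transcripts differ between these genotypes.

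A perineuronal net is a lattice of extracellular matrix around the soma and proximal dendrites of certain neurons. Hyaluronan made at the cell surface forms its backbone, lecticans (chondroitin sulfate proteoglycans) bind to hyaluronan, link proteins clamp that bond, and tenascins crosslink the far ends of the lecticans. In the cerebellum, nets surround neurons of the deep nuclei and Golgi cells, and related matrix, with *Hapln2* and brevican, sits at the nodes of Ranvier of myelinated axons. Nets are known to restrain synaptic plasticity in adult circuits.

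Levels are given as TPM, transcripts of a gene per 1000000 transcripts, a unit scaled to gene length, so that genes can be compared. Depth, worked out from coverage divided by FPKM, was between 4.92 and 6.69 gigabases aligned per library. *Gabra6*, a receptor subunit of granule cells, had a TPM between 984 and 1200. The samples also held other cells: the summed TPM of 10 mature oligodendrocyte markers was between 15200 and 18200, and that of 6 Purkinje cell markers between 453 and 1100. WT mouse 1 stood apart in the latter list, with 1100 against 453 in WT mouse 2 and 579 and 464 in Kdm3b+/- animals. It also had the highest sum of 5 markers of deep nuclei neurons, 211 against 80.0 in WT mouse 2 and 125 and 152 in Kdm3b+/- animals. Most of each sum came from 1 marker, *Spp1*, with 196, 74.2, 117 and 141 TPM in the same order. Sums were 3400 to 4040 for granule cells, 50.7 to 70.7 for inhibitory interneurons and Golgi cells, 10.4 to 13.6 for oligodendrocyte precursors, 79.3 to 99.9 for microglia, 257 to 313 for vascular and meningeal cells and 0.906 to 3.57 for choroid plexus. *Kdm3b* itself had a TPM of 9.10 and 11.0 in WT animals and of 8.30 and 7.90 in Kdm3b+/- animals (log2 fold change -0.27, adjusted p = 0.424 from limma). This was -0.15 without WT mouse 2, -0.17 with quantile normalization and -0.13 after correction for the length and GC content of transcripts. It was -0.40 without WT mouse 1 and -0.31 without Kdm3b+/- mouse 1. By immunoblot, the study found less Kdm3b protein in the vermis of the mutants than in that of WT littermates.

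**Figure D1:**
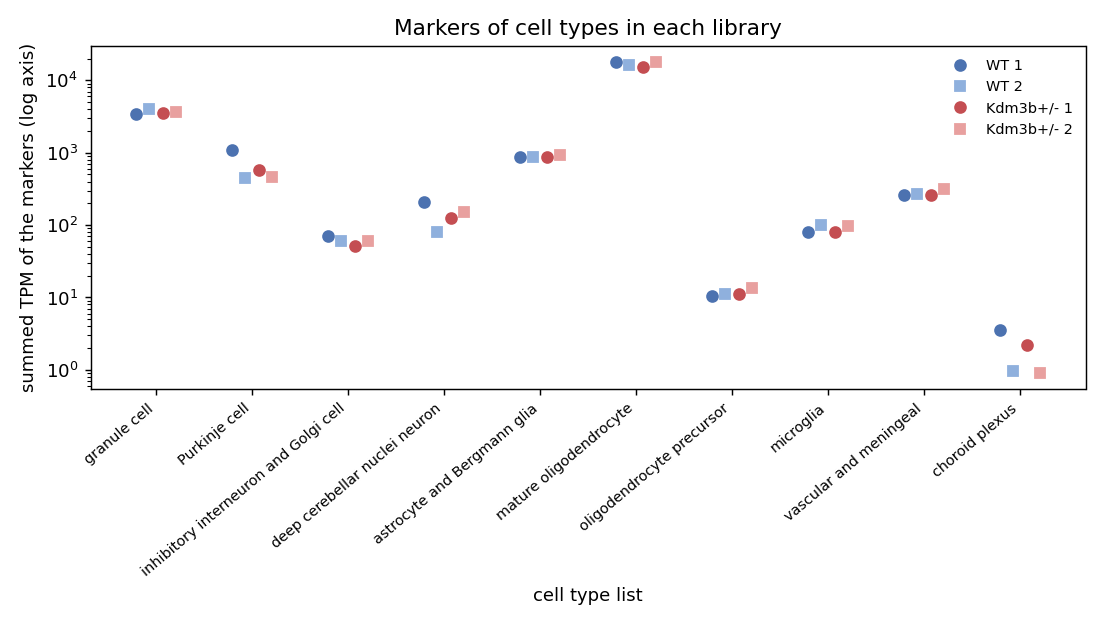
Summed TPM (log axis) of the marker genes of 10 cell types in each of the 4 libraries; circles are mouse 1 and squares mouse 2 of each genotype. Mature oligodendrocyte markers sum to between 15200 and 18200 TPM, and the Purkinje cell markers are highest in WT mouse 1.

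Transcripts of the net were dominated by 3 of the 10 genes. *Hapln2*, *Bcan* and *Hapln4* had mean TPM values of 150.0, 118 and 48.9 over the 4 libraries, while no other member exceeded a mean of 2.21. *Bcan* made up 95.8% to 97.5% of the summed lectican TPM in every library. *Hapln2* held 73.5% to 76.1% of the link protein TPM and *Hapln4* 22.6% to 25.6%. *Tnr*, the tenascin that binds lecticans in adult nets, held 80.6% to 96.5% of the tenascin TPM.

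In the order of mean levels, *Hapln2* was followed by *Bcan*, *Hapln4*, *Ncan*, *Tnr*, *Hapln1*, *Vcan*, *Hapln3*, *Tnc* and *Acan*. The ranges over the 4 libraries were separate at 4 steps of this order: *Bcan* lay above *Hapln4*, *Hapln4* above *Ncan*, *Tnr* above *Hapln1*, and *Vcan* above *Hapln3*. The other neighbours overlapped, although *Hapln2* was higher than *Bcan* and *Hapln3* higher than *Tnc* within all 4 libraries. *Hapln2* had a higher TPM than 86.8% to 91.3% of the 13652 genes whose mean TPM reached 1, and *Bcan* than 83.4% to 88.6% of them. *Ncan*, *Tnr*, *Hapln1* and *Vcan* lay near the lower end of these genes, above 1.49% to 13.3% of them. *Hapln3*, *Tnc* and *Acan* had a mean TPM under 1. None of the 10 genes was listed at 0 in any library.

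**Figure D2:**
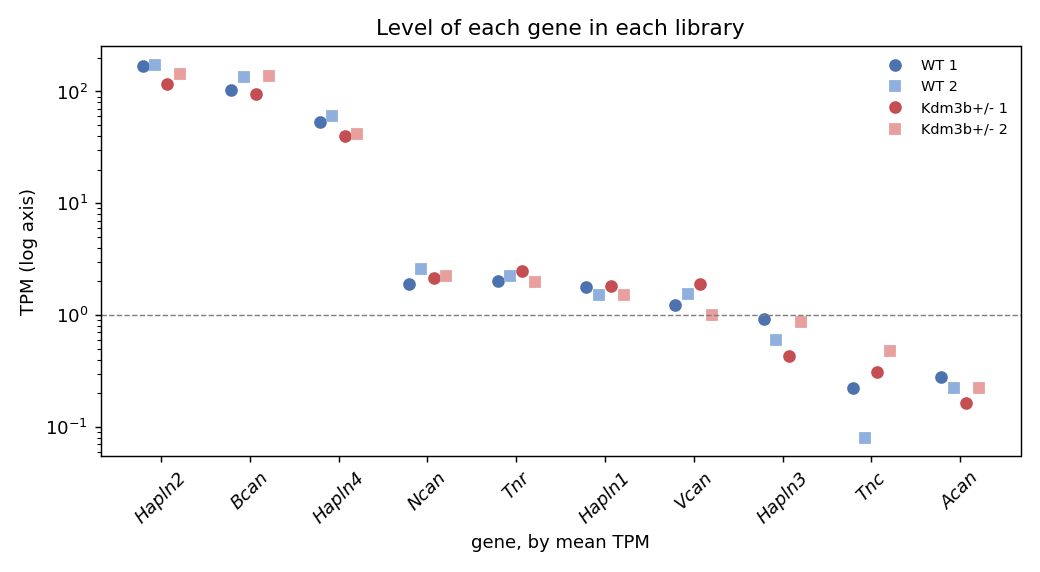
TPM of each of the 10 genes (log axis) in each library, ordered by mean TPM; circles are mouse 1 and squares mouse 2 of each genotype, and the dashed line marks a TPM of 1. *Hapln2* and *Hapln4* are lower in both Kdm3b+/- mice than in both WT mice, and *Hapln3*, *Tnc* and *Acan* lie under a TPM of 1 in every library.

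Of the 10 members, 7 had a mean TPM of at least 1 and were tested between the genotypes with limma on log2(TPM + 1), with p-values adjusted over all 13652 genes that passed this minimum. Calls needed an adjusted p below 0.05 together with a change of more than 1.2-fold. None of the 7 genes was called, and 2 of them, *Hapln2* and *Hapln4*, had an unadjusted p under 0.05, both with lower values in Kdm3b+/- mice. No other tool was run. Over all tested genes 0.461% were called (63 genes, 16 higher and 47 lower, or 29 higher and 40 lower with median-ratio scaling). An unadjusted p under 0.05 with lower values was found for 11.5% of them, and with higher values for 5.47%. The groups did not overlap for *Hapln2* and *Hapln4*, again with both Kdm3b+/- mice lower, and overlapped for the other 5 tested members. Of all tested genes, 32.0% had no overlap with lower values in Kdm3b+/- mice and 19.2% none with higher values. The median log2 fold change was -0.02 for the 7 members and -0.07 for all tested genes.

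*Hapln4* encodes a link protein that holds brevican in the nets of cerebellar nuclei and is made by Purkinje cells and by neurons of these nuclei. It is listed at chr8:70083529-70090862 (forward strand), in coordinates that match GRCm38. Its TPM was 53.4 and 60.5 in WT animals (57.0 ± 5.02, SD, n = 2) and 39.6 and 42.1 in Kdm3b+/- animals (40.8 ± 1.71, SD, n = 2). Both mutant values lay below both WT values, a ratio of means of 0.717. The log2 fold change was -0.47 (95% confidence interval -0.79 to -0.15), with an unadjusted p of 0.00943 and an adjusted p of 0.183 from limma. With libraries left out it ran from -0.56 (without WT mouse 1) to -0.38 (without WT mouse 2). A loess correction for the length and GC content of transcripts gave -0.19 (adjusted p = 0.449), with the groups still apart.

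Beside *Hapln4*, the Purkinje cell list had 0 of 6 genes called and 1 with an unadjusted p under 0.05 from limma. The median log2 fold change was -0.50. The sums were 1100 and 453 TPM in WT animals against 579 and 464 in Kdm3b+/- animals, which overlapped. WT mouse 1, with the sum of 1100, had the lower *Hapln4* value of that genotype, 53.4 against 60.5. Of the 5 markers of deep nuclei neurons 3 were tested and none was called, with overlapping sums and a median of 0.09. *Tbr1* and *Lhx9*, transcription factors of that list, stayed under a TPM of 1. In this bulk tissue fewer cells of a type and less RNA per cell cannot be told apart. The part of the Purkinje cell content in the *Hapln4* values was not tested.

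*Hapln2* encodes the link protein of the nodal matrix and is made by oligodendrocytes. It is listed at chr3:88021750-88027511 (reverse strand). Its TPM was 168 and 174 in WT animals (171 ± 4.31, SD, n = 2) and 117 and 142 in Kdm3b+/- animals (129 ± 17.1, SD, n = 2), and the groups did not overlap. The Kdm3b+/- mice differed more from each other than the WT mice did. The log2 fold change was -0.40 (95% confidence interval -0.72 to -0.09), with an unadjusted p of 0.0177 and an adjusted p of 0.219 from limma. It was -0.27 (adjusted p = 0.942) without Kdm3b+/- mouse 1, the lower of that genotype, and -0.26 (adjusted p = 0.301) after the correction for length and GC content.

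Markers of the cells that make *Hapln2* did not move as 1 group. The sum of the 10 mature oligodendrocyte markers was 18000 and 16400 TPM in WT animals and 15200 and 18200 in Kdm3b+/- animals, and the median log2 fold change was -0.02. *Mobp*, a protein of compact myelin, was the only marker of this list that was called, with a TPM of 925 and 893 in WT animals against 471 and 482 (log2 fold change -0.93, adjusted p = 0.0133 from limma). *Opalin*, a membrane protein of mature oligodendrocytes, had 82.9 and 88.3 against 119 and 163 (log2 fold change 0.69, adjusted p = 0.128). *Mal*, a proteolipid of myelin, had 344 and 317 against 224 and 256, with no overlap (log2 fold change -0.46, adjusted p = 0.168). The groups overlapped for 7 markers of the list. The part of oligodendrocyte content in the *Hapln2* values was not tested.

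*Bcan* encodes brevican, a lectican of astrocytes, oligodendrocyte lineage cells and nets. It is listed at chr3:87987531-88000356 (reverse strand). Its TPM was 104 and 135 in WT animals (119 ± 22.0, SD, n = 2) and 95 and 137 in Kdm3b+/- animals (116 ± 29.4, SD, n = 2). The mice of each genotype differed by more than the genotype means did. The log2 fold change was -0.05 (95% confidence interval -0.50 to 0.39, adjusted p = 0.911 from limma), and its sign depended on the scaling, being 0.20 after the correction for length and GC content. The summed TPM of the 8 astrocyte and Bergmann glia markers was between 863 and 933 in the 4 libraries, with a median log2 fold change of -0.11. The single markers went in both directions. *Aqp4*, a water channel, was called with a log2 fold change of 1.10 (adjusted p = 0.0329 from limma), and *Hopx* had 0.53 (adjusted p = 0.213), with no overlap. In 4 markers both mutants lay below both WT mice without a call: *Gdf10* at -1.03 (adjusted p = 0.157), *Aldh1l1* at -0.69 (0.127), *Slc1a3* at -0.47 (0.216) and *Gja1* at -0.14 (0.584). Over all tested genes, 32.0% were lower without overlap and 19.2% higher. The part of astrocyte content in the *Bcan* values was not tested.

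**Figure D3:**
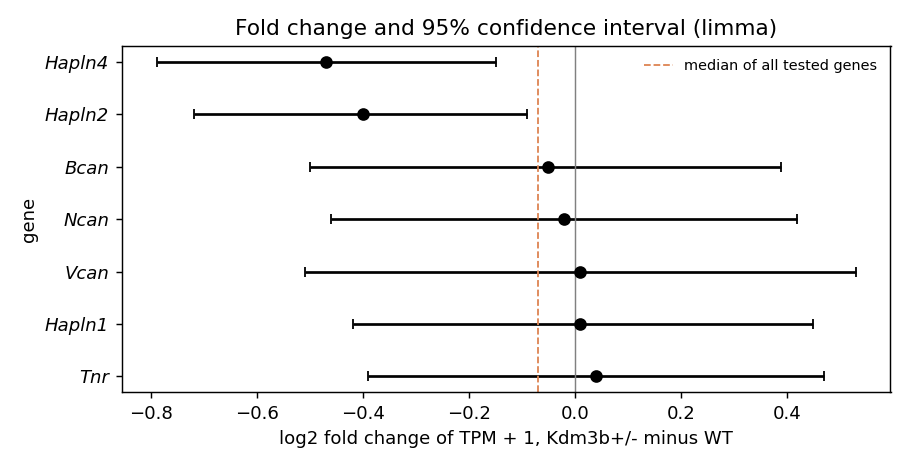
Log2 fold change of TPM + 1 (Kdm3b+/- minus WT) with its 95% confidence interval from limma for the 7 tested genes; the dashed line is the median of all tested genes, -0.07. The intervals of *Hapln4* and *Hapln2* lie below 0 and those of the other 5 genes include it.

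The other tested members were expressed at a low level and overlapped between the genotypes. *Ncan* encodes neurocan, a lectican of developing and adult brain, and had a TPM of 1.90 and 2.59 in WT animals and of 2.14 and 2.22 in Kdm3b+/- animals. *Vcan* encodes versican, a lectican of oligodendrocyte precursors and of the nodal matrix, and had 1.23 and 1.56 against 1.90 and 1.01. The highest and the lowest *Vcan* value were thus both from Kdm3b+/- mice. The mean read depth over the exons was between 4.21 and 6.79 for *Ncan* and between 1.72 and 2.51 for *Vcan*, against 185 to 338 for *Bcan*. *Hapln1*, the link protein that is required for condensed nets, had a TPM of 1.77 and 1.51 against 1.83 and 1.51. *Tnr*, which crosslinks lecticans, had 2.03 and 2.22 against 2.48 and 1.97.

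The log2 fold changes of these 4 genes were between -0.02 and 0.04, with adjusted p-values between 0.928 and 0.986 from limma. Their 95% confidence intervals reached from -0.46 to 0.42 for *Ncan*, from -0.51 to 0.53 for *Vcan*, from -0.42 to 0.45 for *Hapln1* and from -0.39 to 0.47 for *Tnr*. At this depth and number of mice, the values do not exclude differences within these intervals. The intervals are on the log2(TPM + 1) scale, which understates fold changes at such low levels.

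The remaining members were under the TPM minimum and were not tested. *Acan* encodes aggrecan, the lectican that marks mature nets, and had a TPM of 0.278 and 0.222 in WT animals and of 0.165 and 0.224 in Kdm3b+/- animals, with a mean read depth of at most 0.685 over its exons. *Hapln3*, a link protein known mainly from vessels and other tissues, had 0.921 and 0.599 against 0.427 and 0.870. Both genes overlapped between the genotypes. *Tnc*, a tenascin of glia in development and injury, had a TPM of 0.221 and 0.0805 in WT animals and of 0.312 and 0.475 in Kdm3b+/- animals. It was the only member with both mutant values above both WT values, with a mean read depth between 0.199 and 1.45.

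Each link protein gene lies beside a lectican gene, with no other listed gene model between them. *Hapln3* lay 1.93 kb from *Acan* on chromosome 7, *Hapln4* 2.22 kb from *Ncan* on chromosome 8, and *Hapln1* 43.5 kb from *Vcan* on chromosome 13. In these pairs the genes face each other with their 3′ ends. *Hapln2* and *Bcan* differ in this, since both are read from the reverse strand of chromosome 3, 21.4 kb apart. The levels within a pair could be close or far apart. The TPM of *Hapln4* was 18.5 to 28.2 times that of *Ncan*, whereas the ratio of *Hapln1* to *Vcan* was between 0.965 and 1.5. The listed positions were chr7:79053483-79115099 for *Acan* and chr7:79117027-79131018 for *Hapln3*, chr8:70093085-70120844 for *Ncan*, and chr13:89655310-89742512 for *Vcan* and chr13:89540636-89611832 for *Hapln1*. The tenascins lay apart from these, at chr1:159523769-159924922 (*Tnr*) and chr4:63959785-64047015 (*Tnc*).

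Within the libraries, the log2 ratio of *Hapln2* to *Bcan* was 0.70 and 0.37 in WT animals and 0.30 and 0.05 in Kdm3b+/- animals. That of *Hapln4* to *Ncan* was 4.82 and 4.54 against 4.21 and 4.24. Both ratios were lower in both mutants than in both WT mice, by means of -0.35 and -0.45. These differences mostly repeat the lower *Hapln2* and *Hapln4* values, since the log2 fold changes of *Bcan* and *Ncan* were -0.05 and -0.02. Ratios of other gene pairs were not examined. An exact permutation test of 2 mice against 2 cannot give a p under 0.333. With each library left out in turn the difference in the ratio of *Hapln2* to *Bcan* ran from -0.52 to -0.19, being smallest without WT mouse 1 (-0.19) and without Kdm3b+/- mouse 2 (-0.23), and that of *Hapln4* to *Ncan* from -0.59 to -0.32. The log2 ratios of *Hapln3* to *Acan* and of *Hapln1* to *Vcan* overlapped, with differences of 0.08 and 0.03. Summed over each family, the link proteins had 2.09 and 1.70 times the TPM of the lecticans in WT animals and 1.60 and 1.33 times in Kdm3b+/- animals.

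**Figure D4:**
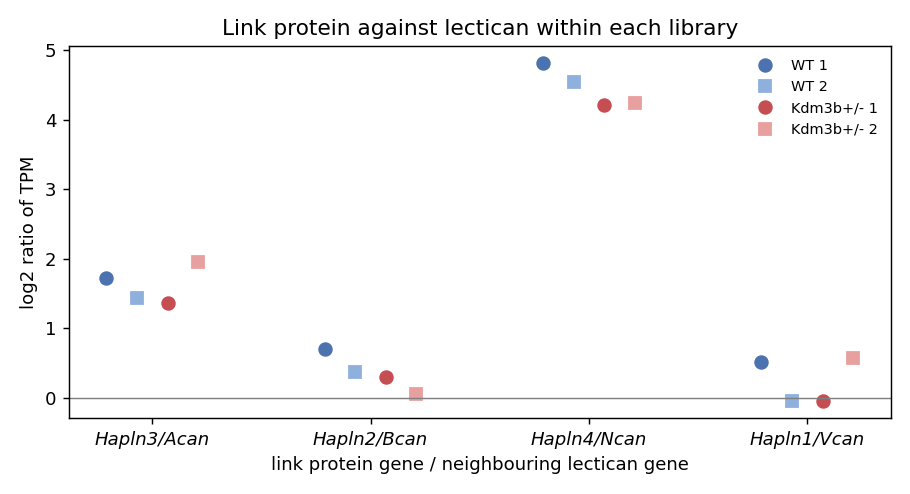
Log2 ratio of the TPM of each link protein gene to that of the lectican gene beside it, in each library; circles are mouse 1 and squares mouse 2 of each genotype. The ratios of *Hapln2* to *Bcan* and of *Hapln4* to *Ncan* are lower in both Kdm3b+/- mice, and the other ratios overlap.

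The upstream sequences of *Bcan* and *Hapln2* are shown because these neighbours were the most abundant members. These genes also differed in whether the TPM of the genotypes overlapped. After the length and GC correction neither overlapped, with *Bcan* higher and *Hapln2* lower in Kdm3b+/- mice. A link of CpG content to genotype was not tested. The 250 bases before each RefSeq start (GRCm38.p6, reverse strand, chr3:88000357-88000606 and chr3:88027512-88027761) are printed 5′ to 3′ in the direction of transcription, with each CpG (the letters CG, the same on both strands) in capitals.
*Bcan*: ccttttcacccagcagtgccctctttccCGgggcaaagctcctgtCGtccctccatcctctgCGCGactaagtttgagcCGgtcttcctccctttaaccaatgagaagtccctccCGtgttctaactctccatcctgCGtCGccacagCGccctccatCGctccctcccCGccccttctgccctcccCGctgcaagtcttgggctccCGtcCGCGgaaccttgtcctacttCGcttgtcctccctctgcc
*Hapln2*: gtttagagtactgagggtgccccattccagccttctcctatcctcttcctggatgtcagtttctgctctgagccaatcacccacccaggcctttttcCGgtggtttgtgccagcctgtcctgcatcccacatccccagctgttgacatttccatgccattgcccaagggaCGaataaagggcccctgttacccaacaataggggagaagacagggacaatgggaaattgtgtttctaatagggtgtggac
The *Bcan* sequence held 16 CpG and 62.0% GC, and the *Hapln2* sequence 2 CpG and 52.4% GC. Over the windows of 27025 genes the median was 6 CpG and 52.0% GC, with at least 1 CpG in 91.7% of them, 2 or fewer in 29.6% and 16 or more in 25.6%. Among the 9 members with an entry, *Acan*, the least expressed, had the most, 26 CpG, and *Hapln1* and *Tnr* had 2 each.

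The genes that build, modify, cut and bind the matrix were examined next, in 6 lists with 61 genes. Of these, 48 were tested and none was called by limma, with 3 genes at an unadjusted p under 0.05 with higher values in Kdm3b+/- mice and 6 with lower values, against the 5.47% and 11.5% given above for all tested genes. Their adjusted p-values were between 0.112 and 0.997. The median log2 fold change was -0.11. In 6 genes both mutants lay above both WT mice and in 11 below them, against 19.2% and 32.0% of all tested genes.

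Of the hyaluronan synthases, *Has1* passed the TPM minimum and *Has2* and *Has3* did not. *Has1* had a TPM of 2.05 and 1.58 in WT animals and of 0.971 and 1.05 in Kdm3b+/- animals, with no overlap. The ratio of its means was 0.559. Its log2 fold change was -0.48 (adjusted p = 0.270 from limma), -0.29 with FPKM and -0.77 with 0.1 added to TPM instead of 1. *Ugdh*, which makes the sugar precursor of hyaluronan and chondroitin, had 29.4 and 28.9 against 25.6 and 27.3. All 5 genes of hyaluronan breakdown overlapped between the genotypes, from *Hyal1* at -0.21 to *Hyal3* at 0.05 on the log2 scale. *Hyal1* was -0.01 both without WT mouse 1 and after the length and GC correction, and -0.40 without WT mouse 2.

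The 11 tested genes of chondroitin chain synthesis had a median log2 fold change of -0.20. The lowest was *Fam20b*, a xylose kinase that sets the number of chains. Its TPM was 31.5 and 39.1 in WT animals against 19.2 and 27.4 (log2 fold change -0.59, adjusted p = 0.206 from limma). The change was -0.35 without Kdm3b+/- mouse 1 and -0.84 without Kdm3b+/- mouse 2. The highest was *B3galt6*, a transferase of the linker, at 0.11. Both directions were seen among the 7 tested sulfotransferases and epimerases, whose groups overlapped in 4. *Chst11*, a 4-O-sulfotransferase, had a TPM of 3.22 and 3.71 in WT animals and of 5.77 and 5.38 in Kdm3b+/- animals (log2 fold change 0.56, adjusted p = 0.187 from limma). The study had picked this gene, *Cd44* and *Ptn* from these same libraries, so their direction is not independent evidence. *Ust*, a 2-O-sulfotransferase, had 32.7 and 45.6 against 27.0 and 28.4 (log2 fold change -0.47, adjusted p = 0.247 from limma). The value of *Ust* was -0.23 without WT mouse 2, -0.70 without WT mouse 1 and -0.27 after the length and GC correction. *Chst13* was listed at 0 in every library.

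The proteases that cut lecticans and their inhibitors had a median of -0.26 over 8 tested genes. *Timp4*, an inhibitor of metalloproteinases, had the highest mean TPM of the 61 genes, with a TPM of 582 and 420 in WT animals and of 308 and 291 in Kdm3b+/- animals. The groups of *Timp4* did not overlap. It had the lowest adjusted p of the 48 genes (log2 fold change -0.72, 95% confidence interval -1.09 to -0.36, adjusted p = 0.112 from limma). The change was -0.49 without WT mouse 1, -0.96 without WT mouse 2 and -0.60 after the length and GC correction. *Adamts20*, a protease that cuts versican, had the highest log2 fold change of the list, 0.31, with a TPM of 4.78 and 5.42 against 6.68 and 6.46. *Adamts4*, a protease that cuts brevican, overlapped between the genotypes, with 9.75 and 10.6 against 6.24 and 11.7.

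Among 15 tested receptors and ligands of the matrix, 11 overlapped between the genotypes. *Cd44*, a receptor for hyaluronan, had the highest log2 fold change, with a TPM of 3.20 and 4.09 in WT animals and of 5.73 and 7.0 in Kdm3b+/- animals (0.67, adjusted p = 0.169 from limma). *Rtn4r*, a receptor for chondroitin sulfate, had the lowest, -0.39 (adjusted p = 0.335), which was -0.12 without WT mouse 2, -0.26 without Kdm3b+/- mouse 1 and -0.67 without WT mouse 1. *Ptn*, which encodes pleiotrophin, a ligand of chondroitin chains, was named after its values were seen. It had a TPM of 107 and 86.4 in WT animals and of 144 in both Kdm3b+/- mice (log2 fold change 0.58, adjusted p = 0.142 from limma). Its groups did not overlap. The study listed *Ptn* among its differentially expressed genes with DESeq2, a test on read counts, and tied it to perineuronal nets in adult mice. Here *Ptn* was not called by limma on TPM, which is a different test.

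**Figure D5:**
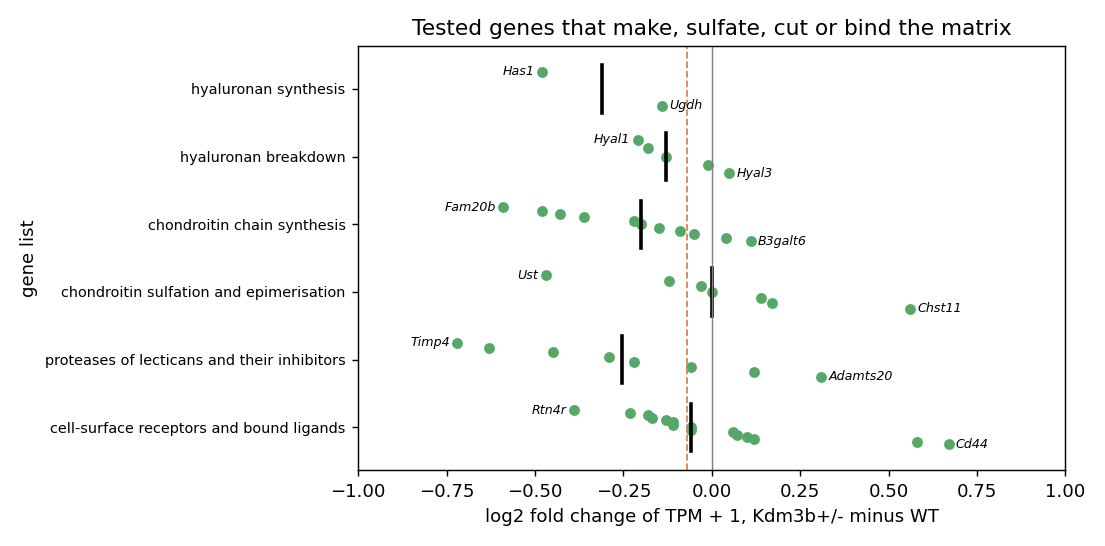
Log2 fold change of TPM + 1 (Kdm3b+/- minus WT) of each tested gene in the 6 lists; vertical bars are list medians, the dashed line is the median of all tested genes, and the lowest and highest gene of each list are named. None of the 48 genes was called, and they run from -0.72 (*Timp4*) to 0.67 (*Cd44*).

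The genes whose profiles over the 4 libraries were most like those of *Hapln4* and *Hapln2* were found by the Euclidean distance between log2(TPM + 1) values, each centred on its own mean. For *Hapln4* these were *Cxcl14* (distance 0.025), *Smyd4* (0.0252) and *Tmem181a* (0.0283). For *Hapln2* they were *4930432K21Rik* (0.0226), *Ptpa* (0.0261) and *Mmd2* (0.0316). Such closeness was common, since 113 and 101 of the 13651 other genes lay within a distance of 0.1. *Hapln2* was 0.171 from *Hapln4*, which made it the 576th closest gene to *Hapln4*, while no other tested member was closer.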

How the data were processed

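Bulk RNA of granule-cell-enriched tissue of the vermis was sequenced in 2 WT and 2 Kdm3b+/- mice, grouped by the sample titles. The authors trimmed reads, aligned them with STAR and estimated abundance with StringTie; tool versions and the genome build are not given in the sources used here. They deposited coverage (a signal, the mean read depth over exons, not normalized), FPKM scaled to length and mapped fragments, and TPM scaled to length and to 1000000 per library. By a RefSeq table of GRCm38, 99.6% of identifiers were on the same chromosome, and 24462 of 24532 had a symbol in it. TPM was summed over entries with the same identifier; 220 identifiers had several.

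Genes whose mean TPM reached 1 were compared on the log2(TPM + 1) scale, which understates changes of low genes. The test was limma 3.58.1 (lmFit and eBayes, trend on; R 4.3.3; statmod 1.5.0 for robust fits) with Benjamini-Hochberg adjustment. TPM keeps no depth, so no count test was run. Transcript length and GC content came from GENCODE transcripts for 94.5% of the genes. Upstream sequences came from RefSeq, with an entry for 9 of the 10 members. Figures used Python 3.11.15, NumPy 2.4.6, pandas 2.3.3 and Matplotlib 3.10.9. The fit was also run on data simulated from its own fitted spread, which cannot test whether that spread holds for the real libraries.

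Members and lists were chosen with earlier results of these data known. Named were the members, *Kdm3b*, the tested gene with the highest and lowest log2 fold change in each list, markers that bear on a member, and the 3 closest profiles of the 2 members with the largest fold change. *Gabra6*, *Spp1*, *Has2*, *Has3*, *Adamts4*, *Ptn* and *Chst13* were named after their values were seen. Alternatives were a pseudocount of 0.1, FPKM, no filter, a minimum mean TPM of 5, median-ratio and quantile scaling, the highest entry per gene, eBayes without trend or robust, a replicate block, a loess correction (span 0.5, degree 2) for GC content and length, alone or with the block, the adjusted p alone, and each library left out.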

Additional observations from a re-analysis of the deposited data

How the results depend on the processing

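With 2 mice against 2, the number of mice limits the precision. A group held 1 mouse when a library was left out, and that mouse was then assumed to vary like the others. Low read depth also limits *Acan*, *Hapln3*, *Tnc* and *Vcan*. *Ncan*, *Hapln1* and *Tnr* had a mean read depth of at most 6.79. No alternative called a tested member. *Hapln4* and *Hapln2* had lower values in Kdm3b+/- mice in all 17 alternatives, from -0.56 to -0.19 and from -0.54 to -0.26 on the log2 scale. Many of these could not turn the sign. Fits that changed only the filter, the spread, the block or the threshold kept the main value. With both mutants below both WT mice, leaving a library out could not turn it either. With all 4 libraries the adjusted p-values from limma were 0.0636 to 0.477 and 0.0802 to 0.359.

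The other tested members had log2 fold changes near 0 whose sign turned. *Bcan* was 0.01 with FPKM, 0.02 with median-ratio scaling and 0.20 with the length and GC correction, with and without the replicate block, and ran from -0.31 to 0.21 with libraries left out. *Ncan* was 0.02, 0.03 and 0.10 in these fits and 0.05 with quantile normalization, and ran from -0.18 to 0.14. *Vcan* was -0.002 with a pseudocount of 0.1, -0.001 with the length and GC correction and -0.001 with the replicate block added, and ran from -0.25 to 0.28. With libraries left out *Hapln1* ran from -0.07 to 0.10, *Tnr* from -0.07 to 0.16, *B3galt6* from -0.05 to 0.26 and *Hyal3* from -0.19 to 0.29. After the length and GC correction 4 tested members had no overlap between the genotypes, *Bcan* and *Ncan* with higher values in Kdm3b+/- mice beside *Hapln2* and *Hapln4* with lower values. The mean TPM of *Hapln4* was 45 to 52.0 with libraries left out.

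The count of called genes was 63. It was 38 with FPKM, 37 with eBayes without trend, 1 without the filter, and 21 to 188 with libraries left out (21 and 28 without WT mouse 1 and 2, 121 and 188 without Kdm3b+/- mouse 1 and 2). Same-numbered mice have different genotypes, and their deviations from the group means correlated at 0.121 across genes (0.0184 after the length and GC correction), so the numbers were not taken to pair the mice. With the replicate block 600 genes were called, 3 of the pathway lists among them (*Timp4*, adjusted p = 0.0130, *Ptn*, 0.0339, and *Fam20b*, 0.0399), and no member. With the block and the length and GC correction the count was 44. The causes of these differences were not tested.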
